A study of Homo sapiens with 18 samples.

Results

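The genes described here encode the subunits of oxidative phosphorylation, together with the few relatives that share their naming. They were chosen by gene symbol, as NDUFA, NDUFB, NDUFC, NDUFS, NDUFV, SDHA to SDHD, UQCR, COX4 to COX8 and ATP5, and by a probe detected (p under 0.05) on at least 3 of 18 arrays. The choice was made with earlier results of these data known. Of 93 matching symbols on the platform, 84 passed, out of 12055 genes tested in the whole series. Of these 84 genes, 72 encode subunits, with 34 in complex I, 3 in complex II, 8 in complex III, 10 in complex IV and 17 in complex V. A further 8 encode complex I assembly factors (NDUFAF1 to NDUFAF8). Another 2 are no subunits (ATP5IF1, the inhibitor of the ATP synthase, and COX7A2L, a supercomplex factor), and 2 are pseudogenes (ATP5F1EP2 and UQCRBP1).

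Oxidative phosphorylation takes place in the inner mitochondrial membrane. Complexes I and II feed electrons from NADH and succinate into ubiquinone, complex III passes them on to cytochrome c, and complex IV hands them to oxygen. Complexes I, III and IV pump protons, and complex V, the ATP synthase, uses the returning flow to make ATP. Most subunits are encoded in the nucleus and imported, a few core subunits are made in the mitochondrion itself, and assembly factors help to build the complexes without staying in them. No mitochondrially encoded gene is among the genes measured here.

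HEK293, an established line of human embryonic kidney origin, was used throughout. In every sample the endogenous p65 (RELA, a DNA-binding NF-kB subunit) had been knocked down with siRNA, and an HA-tagged p65 that resists the siRNA had been supplied by lentivirus, carrying the S547A change or wild type (wt). Cells of each line were harvested untreated or after 4 h or 8 h of etoposide, a topoisomerase II poison that leaves DNA breaks, which gives S547A and wt groups at 0, 4 and 8 h with 3 arrays each. The series text describes 3 independent experiments. Neither the etoposide dose nor whether a line is a clone is given in the sources used here. No array holds cells that kept their own p65.

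The share of probes detected ran from 35.8% to 39.2% over the arrays. Within groups, pairs of arrays had a Pearson r of 0.982 to 0.989 over genes, and genes are no independent replicates. On the normalized log2 scale, the RELA probe read 8.69 to 9.09 in untreated S547A cells and 9.59 to 10.3 after etoposide, and 7.43 to 7.99 in untreated wt cells and 9.19 to 9.48 after etoposide. Where that probe lies in the transcript was not examined, so whether it reads endogenous RELA, supplied RELA or both is not known here. Of 8 measured markers of HEK293-type cells, 7 were detected on at least 3 arrays. Of 15 markers of blood, fibroblast, keratinocyte and endothelial cells, 6 were detected on at least 3 arrays, 1 (ITGB2) on all 18 and 6 on none, and 2 to 7 of the 15 were detected on any 1 array. Over the 8 h arrays the number was 4 to 7 in S547A and 3 to 4 in wt, against 3 to 6 in untreated S547A and 4 to 5 in untreated wt cells. Of the 7 HEK293-type markers tested, 2 rose and 2 fell in S547A and 1 fell in wt cells at 8 h. INA (0.80) and VIM (0.36) rose and NEFL (-1.81) and KRT18 (-0.78) fell in S547A, and NEFL (-1.61) fell in wt cells (log2 changes). The part of any of these markers in the results was not tested.

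The promoters of these genes are known for a small set of binding motifs, above all those of NRF1 and of the ETS family (bound by GABP), which are regarded as general activators of respiratory genes. Promoter windows were available for 69 of the 84 genes. The 4 shown here belong to members that moved alike in both lines at 8 h of etoposide. UQCR10 and COX6B1 fell and NDUFS3 and NDUFAF5 rose. For each direction 1 promoter with the NRF1 motif and 1 with the ETS motif was picked, so this balance comes from the choice. Each line gives 190 bases 5′ to 3′, 170 before the annotated start and 20 from it, from RefSeq (build GRCh38.p14), and the capitals mark the motif.
UQCR10 (chr22:29767199-29767388, + strand, NRF1): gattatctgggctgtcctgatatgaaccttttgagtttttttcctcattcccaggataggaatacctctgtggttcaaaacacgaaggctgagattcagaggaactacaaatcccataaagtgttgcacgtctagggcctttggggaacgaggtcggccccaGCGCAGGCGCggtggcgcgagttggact
COX6B1 (chr19:35648153-35648342, + strand, ETS): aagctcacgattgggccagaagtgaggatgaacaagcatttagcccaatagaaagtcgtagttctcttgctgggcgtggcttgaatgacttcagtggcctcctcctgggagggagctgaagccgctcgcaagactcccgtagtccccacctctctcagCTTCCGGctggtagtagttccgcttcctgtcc
NDUFS3 (chr11:47578904-47579093, + strand, ETS): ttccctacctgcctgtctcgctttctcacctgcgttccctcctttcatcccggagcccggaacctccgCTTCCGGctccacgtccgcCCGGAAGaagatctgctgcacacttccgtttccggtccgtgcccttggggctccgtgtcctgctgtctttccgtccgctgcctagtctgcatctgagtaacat
NDUFAF5 (chr20:13784858-13785047, + strand, NRF1): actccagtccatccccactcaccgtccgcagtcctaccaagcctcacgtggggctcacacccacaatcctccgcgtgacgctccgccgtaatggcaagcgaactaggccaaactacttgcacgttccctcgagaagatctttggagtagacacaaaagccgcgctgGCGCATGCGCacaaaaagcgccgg

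In the UQCR10 window the NRF1 motif spans bases -8 to 2 around the start, and in that of NDUFAF5 bases -4 to 6. The ETS motif lies at -12 to -6 in COX6B1, and at -102 to -96 and -83 to -77 in NDUFS3. Motifs were searched on both strands from 250 bases before to 50 after the start, and 1 base could count for more than 1 motif. The NRF1 motif (GCGCA, then any base, then GCGC) occurred in 25% of 60 subunit promoters, against 11.8% of 9653 promoters of genes tested and 6.28% of all 27305. The ETS motif (CCGGAAG) occurred in 31.7%, against 18.8% and 10.7%, and the YY1 motif (AAGATGGC) in 16.7%, against 5.38% and 3.03%. The SP1 motif (GGGGCGGGG) was found in 13.3%, against 26.7% and 16%, and the ERR motif (TCAAGGTCA) in 1.67%, against 0.218% and 0.359%. The NF-kB motif was present in 13.3% of subunit promoters, against 12.8% and 10.8%. Of the 8 matched promoters of genes that fell in both lines at 8 h, 2 hold the NRF1, 1 the ETS and 1 the NF-kB motif. Of 5 promoters of genes called higher in both (ATP5MK, near background, among them), 1 holds the NRF1, 2 the ETS and 1 the NF-kB motif. A match is a description of the letters and not a bound site.

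The levels of most of these genes differed little between arrays of a group. The probe used was detected on all 18 arrays for 79 of the 84 genes. The pooled SD between arrays of a group had a median of 0.138 on the log2 scale over these genes, against 0.226 over all genes tested. It reached 0.551 for UQCRB. Most probes of the set were brighter than those of most genes, and SDs at equal brightness were not compared. The median level of the 72 subunits was 11.5 to 11.6 log2 units on the untreated S547A arrays, 11.5 on the 4 h arrays and 11.2 to 11.4 on the 8 h arrays. In wt cells it was 11.5 on the untreated arrays, 11.4 to 11.5 at 4 h and 11.2 to 11.3 at 8 h. In both lines the 8 h arrays were thus below every untreated array. The median of all genes was 7.19 to 7.24 on all 18 arrays, which the quantile normalization of the arrays largely fixes and which is no finding. In bulk RNA, fewer cells and less RNA per cell cannot be told apart.

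Among 9 matching symbols not detected on at least 3 arrays were 6 tissue-restricted isoforms of complex IV, namely COX4I2, COX6A2, COX6B2, COX7A1, COX7B2 and COX8C. COX6B2 was detected on 2 arrays and the other 5 on none. Their widely expressed counterparts COX4I1, COX6A1, COX6B1, COX7A2, COX7B and COX8A were detected on all arrays. The remaining 3 were NDUFA5, detected on 2 arrays, and NDUFS6 and the antisense gene NDUFB2-AS1, each on none.

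At 4 h of etoposide these genes showed almost no called change. None of the 84 was called in S547A cells (limma, adjusted p under 0.05), where 9.51% of all genes were (5.67% higher and 3.83% lower), and 3 of the 84 had an unadjusted p under 0.05. In wt cells 1 of 84 was called, NDUFAF7, where 10.4% of all genes were (6.25% higher and 4.17% lower). NDUFAF7 encodes a methyltransferase that modifies a core subunit during complex I assembly. It read 8.86, 8.92 and 8.95 in wt cells at 4 h, against 8.25, 8.53 and 8.28 untreated, so the arrays did not overlap (log2 change 0.56 ± 0.12 SE, limma adjusted p = 0.00531). The call ended with common-median scaling of the arrays and with the mean of its probes (adjusted p up to 0.181). The median log2 change over the 84 genes was -0.018 in S547A and -0.019 in wt cells, against -0.0022 and 0.0017 over all genes. Scaling arrays to a common median moved the share of called genes that were higher to 83.9% in S547A and 32.9% in wt cells, against 59.7% and 59.95% with quantiles, over all genes at 4 h.

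**Figure D1:**
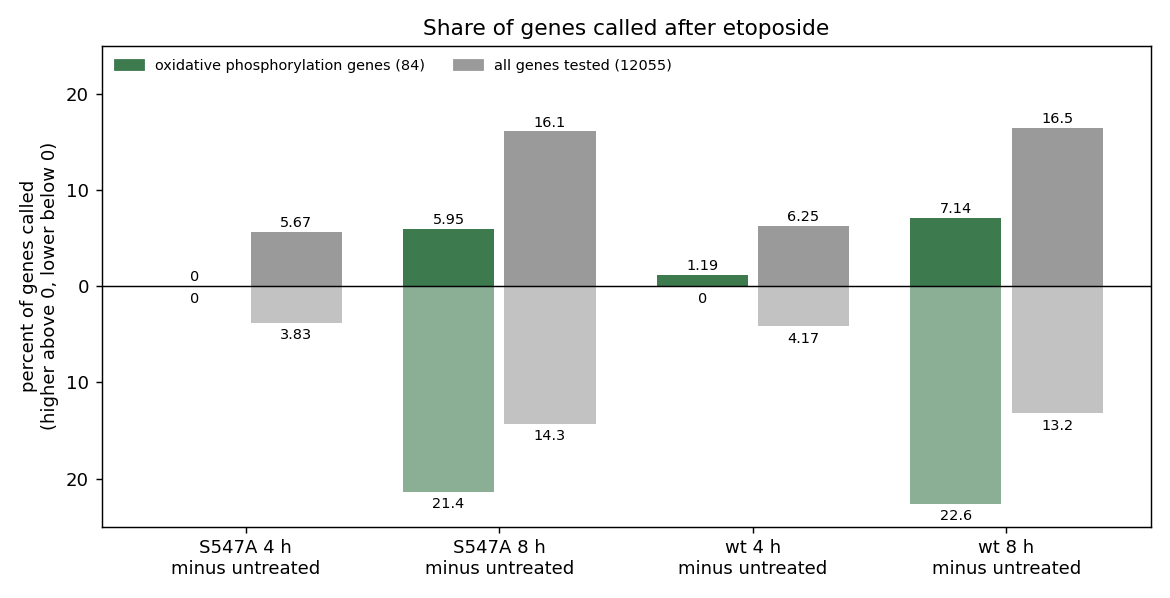
Percent of genes called (limma, adjusted p under 0.05) after etoposide against untreated cells, with genes called higher drawn above 0 and genes called lower below 0, for the 84 oxidative phosphorylation genes and all 12055 genes tested. At 4 h the share of the 84 is at most 1.19% in each direction, and at 8 h 21.4% were lower in S547A and 22.6% in wt cells, against 14.3% and 13.2% of all genes.

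At 8 h a part of the genes had moved, and mostly downwards. In S547A cells 18 of the 84 fell and 5 rose, which is 27.4% called, where 30.5% of all genes were called. In wt cells 19 fell and 6 rose, or 29.8%, where 29.7% of all genes were called. The higher calls include ATP5MK, which passed the detection filter only through etoposide arrays. The share called was thus near that of all genes, and the directions were split otherwise. In S547A cells 21.4% were lower and 5.95% higher, against 14.3% and 16.1% of all genes, and in wt cells 22.6% and 7.14%, against 13.2% and 16.5%. The median log2 change over the 84 was -0.17 in S547A and -0.12 in wt cells, against -0.01 and -0.00 over all genes. Over the 1520 genes whose probes were as bright as the lowest quartile of subunit probes or brighter, it was -0.03 and 0.00. The called shares above are set against all genes, which are not matched to the 84 for brightness or spread between arrays. Most of the changes were small, and only UQCR10 in S547A and UQCRB in wt cells reached an absolute log2 change of 1.

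Scaling each array to a common median in place of quantiles shifted the median of all genes to 0.11 in S547A and 0.04 in wt cells. It gave 13 lower and 3 higher members in S547A and 13 lower and 7 higher in wt cells. Under it 77.1% of all called genes in S547A and 68.1% in wt cells were higher, against 52.9% and 55.7%. The members' median relative to that of all genes was -0.34 in S547A and -0.21 in wt cells, against -0.16 and -0.12 with quantiles. Leaving out wt untreated replicate 1, 2 or 3 or wt 8 h replicate 2 gave 16, 14, 15 and 16 calls in wt cells, in that order, in place of 25.

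Common-median scaling ended 8 of the 23 calls in S547A, those of ATP5MC3, ATP5MK, NDUFA2, NDUFB11, NDUFB6, NDUFB7, NDUFC1 and NDUFS3. It ended 9 of the 25 in wt cells, those of ATP5F1C, ATP5MC1, ATP5MF, ATP5MJ, NDUFA13, NDUFA3, NDUFB6, NDUFC1 and NDUFS3. Fitting only the 2 groups compared ended 7 calls in S547A (COX5A, COX6B1, NDUFA2, NDUFA6, NDUFB11, NDUFS3 and NDUFS5) and 6 in wt cells (ATP5MK, COX5A, COX6B1, NDUFA3, NDUFB6 and NDUFS5).

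**Figure D2:**
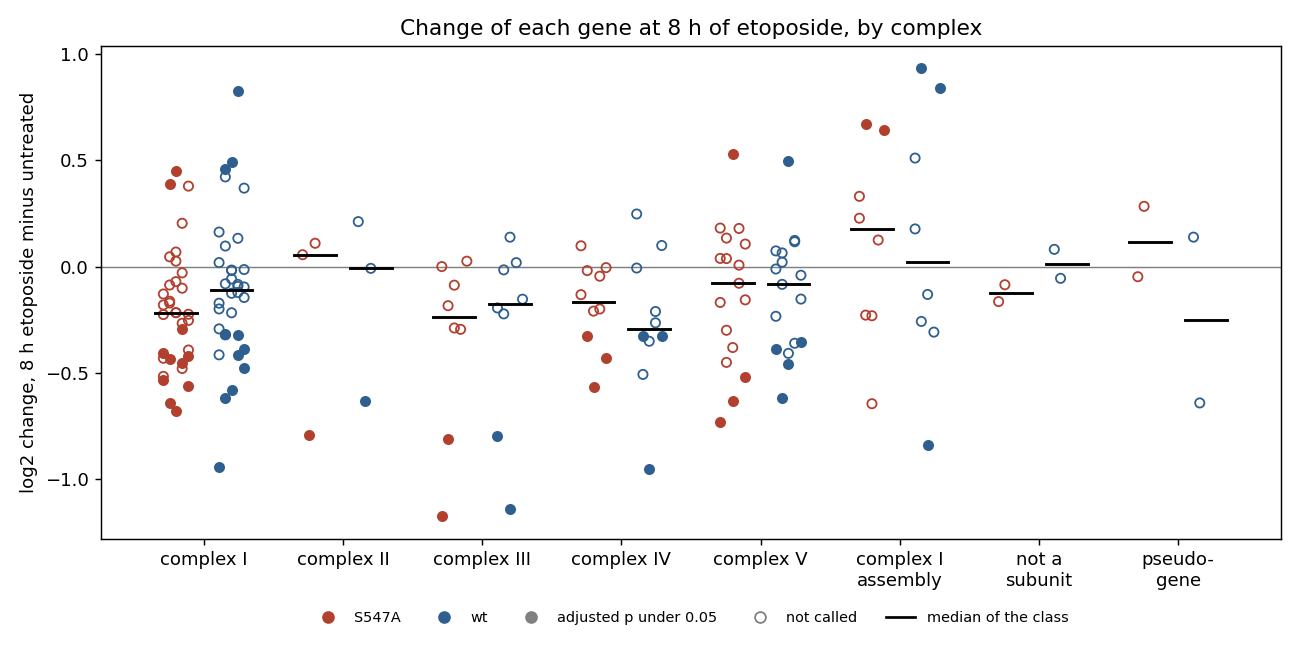
Log2 change at 8 h of etoposide against untreated cells of the same line (vertical axis) for each of the 84 genes, by complex, with S547A left of wt, filled points for called genes and black lines for class medians. The lowest points are UQCR10 (-1.17 in S547A) and UQCRB (-1.14 in wt cells), both in complex III, and the 2 called assembly factors above 0.6 in both lines are NDUFAF5 and NDUFAF7.

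Complex I, the NADH dehydrogenase, had 9 lower and 2 higher of 34 subunits in S547A cells at 8 h (median log2 change -0.22) and 8 lower and 3 higher in wt cells (median -0.11). NDUFV2, an iron-sulfur subunit of the arm that binds NADH, had the lowest change of complex I in S547A cells. It read 10.34, 10.56 and 10.09 in S547A cells at 8 h, against 11.04, 11.07 and 10.90 untreated. The wt arrays read 10.29, 10.32 and 10.14 at 8 h, against 10.81, 10.78 and 10.90 untreated. The groups did not overlap in either line, and NDUFV2 fell by 0.68 ± 0.13 in S547A and by 0.58 ± 0.13 in wt cells (log2 ± SE, limma adjusted p = 0.000917 and 0.00316). NDUFAB1, the mitochondrial acyl carrier protein, fell by 0.64 in S547A cells (adjusted p = 0.0027). In wt cells its change was -0.32 (adjusted p = 0.106).

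The lowest change of complex I in wt cells was that of NDUFA1, a small accessory subunit of the membrane arm. It read 11.12, 11.17 and 12.13 in wt cells at 8 h, against 12.24, 12.33 and 12.66 untreated, and fell by 0.94 ± 0.26 (adjusted p = 0.0115). Replicate 3 at 8 h lay above the other 2, and the call ended without wt untreated replicate 3 or wt 8 h replicate 1 or 2 (adjusted p up to 0.0618). In S547A cells NDUFA1 changed by -0.52, which was not called (adjusted p = 0.152). The accessory subunits NDUFB3 and NDUFA13 were called in wt cells only, at -0.62 and -0.47, and read -0.17 and -0.39 in S547A cells. NDUFB3 lost its call without wt 8 h replicate 2 (adjusted p = 0.0543), and NDUFA13 without wt untreated replicate 2 or wt 8 h replicate 3 (up to 0.104).

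The accessory subunits NDUFB6, NDUFC1, NDUFA3 and NDUFS5 fell in both lines, by 0.56, 0.45, 0.43 and 0.30 in S547A and by 0.39, 0.41, 0.32 and 0.32 in wt cells. NDUFB7, NDUFB11 and NDUFA2 fell in S547A cells by 0.53, 0.42 and 0.40, and read -0.20, -0.14 and -0.29 in wt cells. In S547A cells NDUFA3, NDUFB6 and NDUFB7 kept their calls whichever array was left out, though NDUFB6 and NDUFB7 lost them with common-median scaling (adjusted p = 0.068 and 0.0614), while NDUFC1, NDUFB11, NDUFA2 and NDUFS5 lost them without 1 or another array. NDUFS5 had the least margin, with an adjusted p of 0.0476 in S547A cells that passed 0.05 without 15 of the 18 arrays, taken one at a time. In wt cells all 4 shared ones lost the call without 1 or another array (adjusted p up to 0.119, for NDUFA3).

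Rises in complex I were few. NDUFS3, a core subunit near the ubiquinone site, read 12.27, 12.14 and 12.07 in S547A cells at 8 h, against 11.76, 11.68 and 11.88 untreated. The wt arrays read 12.29, 12.21 and 12.07 at 8 h, against 11.67, 11.74 and 11.78 untreated. It rose by 0.39 ± 0.11 in S547A and by 0.46 ± 0.11 in wt cells (adjusted p = 0.00964 and 0.00336), with no overlap of arrays, and kept these calls whichever array was left out. With common-median scaling neither call held (adjusted p = 0.204 in S547A and 0.109 in wt cells), nor did the S547A call when its 2 groups were fitted alone (0.0692). NDUFA6, an accessory subunit, had the highest change of complex I in S547A cells and rose by 0.45 there and by 0.49 in wt cells (adjusted p = 0.0242 and 0.0151). Its S547A call ended without S547A untreated replicate 3 or 8 h replicate 1 or 2 (up to 0.111), and its wt call without wt untreated replicate 1 (0.0529). NDUFV3, a small subunit of the NADH-binding arm, read 7.68, 7.16 and 6.98 in wt cells at 8 h, against 6.53, 6.57 and 6.23 untreated. It rose by 0.83 ± 0.21 in wt cells (adjusted p = 0.00636) and changed by 0.20 in S547A cells (0.507). Its other probe, detected on 8 arrays, changed by 0.46 in S547A and 0.15 in wt cells and was called in neither (limma over all kept probes, adjusted p = 0.253 and 0.773).

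Complex II, succinate dehydrogenase, is represented by SDHA, SDHC and SDHD. SDHC, a membrane anchor, read 9.14, 9.08 and 9.50 in S547A cells at 8 h, against 9.97, 10.20 and 9.93 untreated. The wt arrays read 9.51, 9.65 and 9.24 at 8 h, against 10.10, 10.14 and 10.05 untreated. SDHC fell by 0.79 ± 0.14 in S547A and by 0.63 ± 0.14 in wt cells (adjusted p = 0.000277 and 0.00192), in every alternative run. Its other probe changed by -0.22 in S547A and -0.66 in wt cells. The flavoprotein SDHA and the second anchor SDHD had no called change, with 0.06 and 0.11 in S547A and 0.21 and -0.01 in wt cells.

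Complex III, the cytochrome bc1 complex, held the largest falls of all 84 genes in both lines, each in a small accessory subunit. UQCR10 read 8.41, 8.56 and 8.64 in S547A cells at 8 h, against 9.76, 9.77 and 9.60 untreated. The wt arrays read 8.60, 8.95 and 8.69 at 8 h, against 9.59, 9.68 and 9.36 untreated. The lowest untreated array lay above the highest 8 h array in both lines. UQCR10 fell by 1.17 ± 0.13 in S547A, to 0.443 times the untreated level, and by 0.80 ± 0.13 in wt cells, to 0.576 times (adjusted p = 5.81e-06 and 0.000262). Its other 2 probes changed by -0.43 and -0.69 in S547A and by -0.78 and -0.50 in wt cells.

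UQCR11, the smallest subunit of complex III, read 7.30, 7.34 and 7.87 in S547A cells at 8 h, against 8.28, 8.42 and 8.24 untreated, and fell by 0.81 ± 0.19 (adjusted p = 0.00309). In wt cells its change was -0.22 (adjusted p = 0.414) and the arrays overlapped. UQCRB, the ubiquinone-binding protein, read 7.76, 8.05 and 9.09 in wt cells at 8 h, against 9.35, 9.26 and 9.70 untreated. It fell by 1.14 ± 0.39 (adjusted p = 0.0372), the largest fall in wt cells, with the largest SE of the called members. The call ended without any 1 of the wt untreated arrays or without wt 8 h replicate 1 or 2 (up to 0.158), and the other kept probe of UQCRB changed by 0.01. In S547A cells UQCRB changed by -0.29 (adjusted p = 0.63). The core protein UQCRC2 and the subunit UQCRQ had the highest changes of complex III, at 0.03 in S547A and 0.14 in wt cells, and neither was called.

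**Figure D3:**
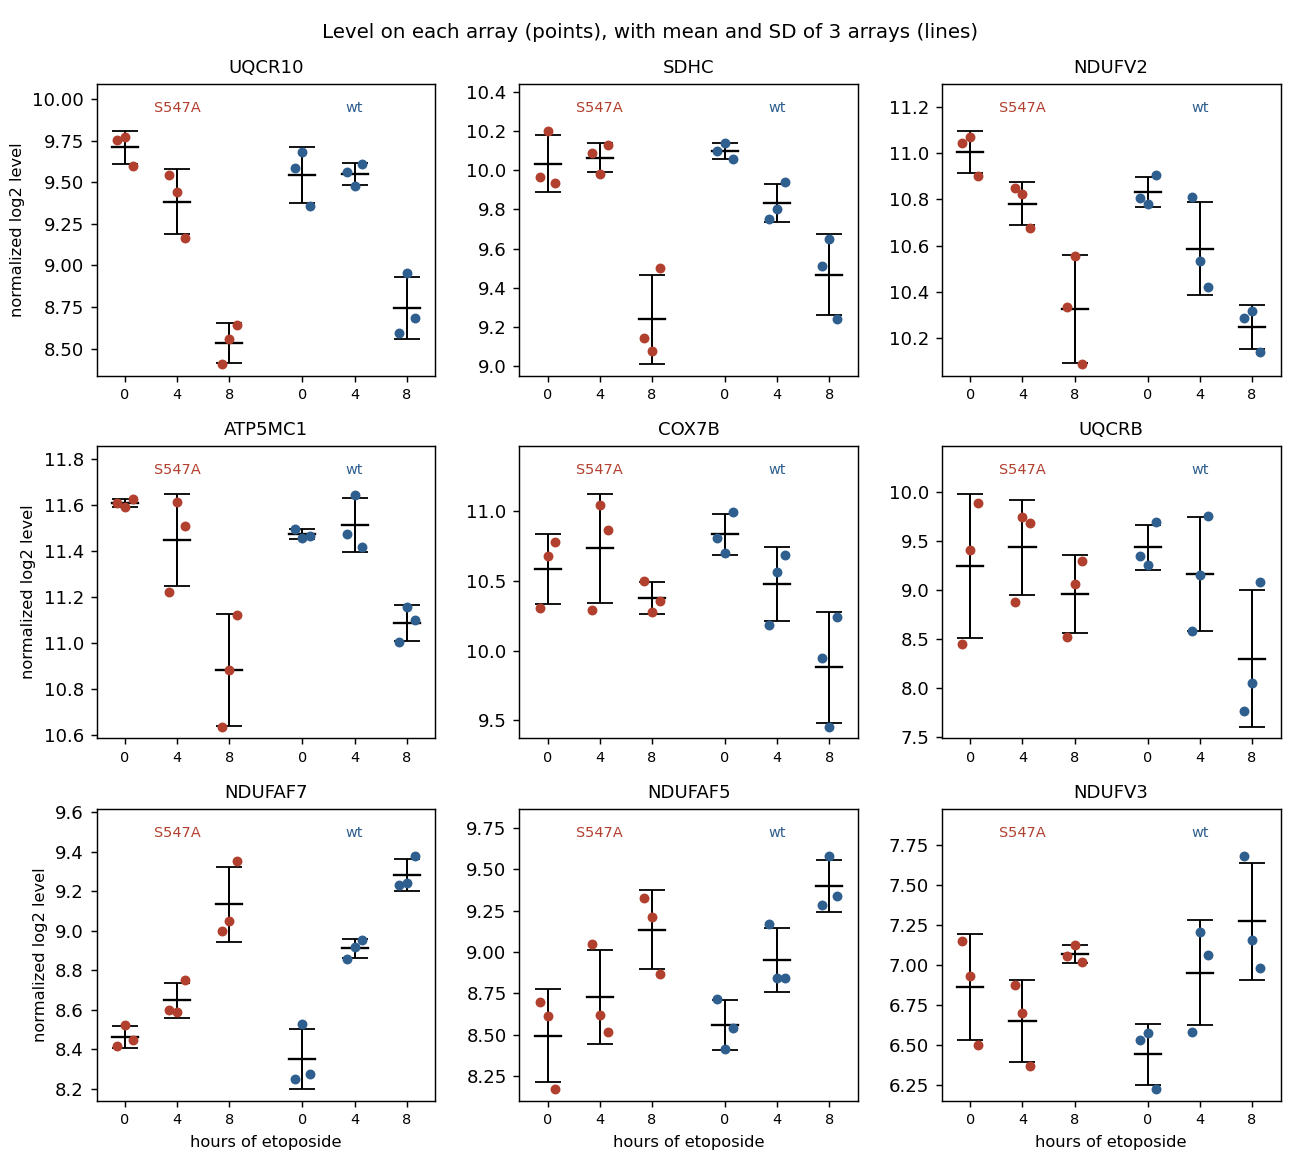
Normalized log2 level on each of the 18 arrays (points) of 9 genes at 0, 4 and 8 h of etoposide in S547A (left) and wt cells (right), with the mean and SD of 3 arrays as lines and a separate vertical scale for each gene. UQCR10, SDHC, NDUFV2 and ATP5MC1 have their lowest means at 8 h with no overlap with untreated arrays, NDUFAF7 and NDUFAF5 have their highest means there, and UQCRB spreads widely within groups.

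Complex IV, cytochrome c oxidase, had 3 of 10 genes lower and none higher in each line. COX5A and COX6B1 fell in both, by 0.32 and 0.43 in S547A and by 0.33 and 0.33 in wt cells (limma adjusted p = 0.0408, 0.00651, 0.0404 and 0.033). COX6B1, whose product sits on the intermembrane side, read 11.64, 11.84 and 11.77 in S547A cells at 8 h, against 12.10, 12.31 and 12.12 untreated. Its S547A call held whichever array was left out, and its wt call ended without 5 of the 6 arrays compared (adjusted p up to 0.126). The calls of COX5A ended without 6 arrays in S547A and 6 in wt cells, taken one at a time (up to 0.157 and 0.11). COX5B read 12.05, 11.78 and 12.10 in S547A cells at 8 h, against 12.62, 12.52 and 12.49 untreated, and fell by 0.56 ± 0.13 (adjusted p = 0.00316). In wt cells its change of -0.35 missed the threshold (adjusted p = 0.051) although the arrays did not overlap.

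COX7B, a small subunit, read 9.95, 9.45 and 10.24 in wt cells at 8 h, against 10.81, 10.70 and 10.99 untreated, and fell by 0.95 ± 0.21 (adjusted p = 0.00281). In S547A cells its arrays overlapped and the change was -0.21 (adjusted p = 0.508). COX4I1, the widely expressed form of subunit 4, had the highest change of complex IV in both lines, at 0.10 in S547A and 0.25 in wt cells, and was not called (adjusted p = 0.566 and 0.117).

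Complex V, the ATP synthase, had 3 lower and 1 higher of 17 genes in S547A cells (median log2 change -0.08) and 4 lower and 1 higher in wt cells (median -0.08). ATP5MC1, ATP5MC2 and ATP5MC3 encode the same mature subunit of the membrane ring that carries protons, and their probes are given side by side without a test between them. ATP5MC1 read 10.64, 10.88 and 11.12 in S547A cells at 8 h, against 11.61, 11.59 and 11.63 untreated. The wt arrays read 11.00, 11.16 and 11.10 at 8 h, against 11.50, 11.46 and 11.47 untreated. ATP5MC1 fell by 0.73 ± 0.13 in S547A and by 0.39 ± 0.13 in wt cells (adjusted p = 0.000456 and 0.0349). The wt call ended without any 1 of the 6 arrays compared (up to 0.108). The other probe of ATP5MC1 changed by -0.25 in S547A and -0.32 in wt cells, neither called (limma over all kept probes, adjusted p = 0.398 and 0.268). ATP5MC3 fell by 0.63 in S547A cells (adjusted p = 0.00843, but 0.122 with common-median scaling and 0.0516 without S547A 8 h replicate 1) and changed by -0.41 in wt cells (0.079). ATP5MC2 changed by -0.30 in S547A (adjusted p = 0.0524) and 0.02 in wt cells, and 1 of its other probes was called in S547A cells at -0.55.

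ATP5MF, which encodes subunit f of the membrane part, fell by 0.52 in S547A and by 0.35 in wt cells (adjusted p = 0.00396 and 0.0379). The wt call ended without any 1 of the 6 arrays compared (up to 0.0929). ATP5MJ, a small associated protein, fell by 0.62 in wt cells (adjusted p = 0.0128), where it had the lowest change of complex V, and changed by -0.45 in S547A cells (0.0607). ATP5F1C, which encodes the central stalk subunit gamma, fell by 0.46 in wt cells (0.0359, and up to 0.144 without 1 of 5 arrays) and changed by -0.38 in S547A cells (0.0779). The catalytic subunits ATP5F1A and ATP5F1B had no called change, with 0.04 and 0.04 in S547A and 0.07 and -0.08 in wt cells. ATP5MK, a small subunit linked to dimers of the synthase, was not detected on any untreated array of either line and was detected on 2 of 3 arrays at 8 h in both lines. Its mean log2 level was 5.28 at 8 h against 4.75 untreated in S547A, and 5.41 against 4.92 in wt cells. It passed the filter only through 6 arrays, all after etoposide, so that a call in the higher direction was favoured by the filter. It was called higher (limma adjusted p = 0.0337 and 0.0469). Set against the lowest detected signal of each untreated array, its mean at 8 h was 1.00 times that signal in S547A and 1.16 times in wt cells. These ratios carry no error and their 8 h means include an array without detection, so they are no lower bounds of a rise. The S547A call ended without 4 arrays and the wt call without 11, taken one at a time (adjusted p up to 0.114 and 0.175). Both calls also ended without background correction, with an offset of 64 and with the authors' table, where the change was 0.18 to 0.24. The S547A call ended with common-median scaling too, and the wt call with the replicate block, with no filter on dim probes and with the compared groups alone.

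Of the 8 complex I assembly factors, 2 rose in both lines, none fell in S547A and 1 fell in wt cells. NDUFAF7 read 9.00, 9.05 and 9.35 in S547A cells at 8 h, against 8.42, 8.52 and 8.44 untreated. In wt cells it read 9.23, 9.24 and 9.38 at 8 h, against 8.25, 8.53 and 8.28 untreated. It rose by 0.67 ± 0.12 in S547A and by 0.93 ± 0.12 in wt cells (adjusted p = 0.000376 and 1.75e-05). The other 2 probes of NDUFAF7 changed by 0.31 and -0.31 in S547A and by 0.38 and -0.05 in wt cells, and with the mean of its probes the S547A call ended (adjusted p = 0.158). NDUFAF5, which hydroxylates a core subunit during assembly, read 9.32, 9.21 and 8.87 in S547A cells at 8 h, against 8.70, 8.61 and 8.17 untreated. In wt cells it read 9.28, 9.58 and 9.34 at 8 h, against 8.72, 8.42 and 8.54 untreated. It rose by 0.64 ± 0.18 in S547A and by 0.84 ± 0.18 in wt cells (adjusted p = 0.0111 and 0.00174), and the S547A call ended without S547A untreated replicate 3 or 8 h replicate 1 (up to 0.0653). NDUFAF8, known as a partner of NDUFAF5, fell by 0.84 ± 0.25 in wt cells (adjusted p = 0.0156, and up to 0.0838 without wt untreated replicate 2 or 8 h replicate 3). In S547A cells NDUFAF8 changed by -0.64 (adjusted p = 0.0568).

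ATP5IF1 and COX7A2L had no called change at 8 h in the probe used, with -0.16 and -0.08 in S547A and 0.08 and -0.05 in wt cells. The other probe of ATP5IF1, detected on all 18 arrays, was called lower in S547A cells at -0.76 (limma over all kept probes, adjusted p = 0.0228) and changed by -0.46 in wt cells (adjusted p = 0.176). The pseudogene probes of ATP5F1EP2 and UQCRBP1 were not called either, at -0.05 and 0.28 in S547A and 0.14 and -0.64 in wt cells. The pairs ATP5F1E and ATP5F1EP2, UQCRB and UQCRBP1, and UQCRH and UQCRHL have near-identical sequences, so each value may mix both.

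Of the 84 genes, 24 had more than 1 kept probe. All other probes had the sign of the one used for 6 of 7 called genes in S547A and 8 of 10 in wt cells. When every kept probe was tested separately, with p-values adjusted over all 22161 kept probes, probes disagreed in sign with at least 1 called for ATP5MC2, ATP5ME and NDUFAF7 in S547A and for NDUFAF7 and UQCRB in wt cells. For ATP5MC2 in S547A cells 1 of the other probes was called at -0.55 (adjusted p = 0.0462) and the remaining one read 0.58 (0.134). For ATP5ME, subunit e of the synthase, the probe used read 0.01 in S547A cells, while another was called at -0.51 (0.0337). Whether or not the signs disagreed, 5 members that were not called in S547A cells had another probe called lower, namely ATP5F1D (-0.70), ATP5IF1, ATP5MC2, ATP5ME and NDUFA10 (-0.61). In wt cells this held for 1 member, UQCRH (-0.45).

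Between 4 h and 8 h, averaged over both lines, 21 of the 84 genes fell and 3 rose, where 28% of all genes were called, 12.6% lower and 15.4% higher. With common-median scaling 11 fell and 4 rose, and 79.2% of all calls were higher, against 54.9%. The largest falls among the called genes were those of NDUFAF8 (by 0.84), UQCR10 (by 0.83 ± 0.09, limma adjusted p = 1.3e-05), SDHC (by 0.60), ATP5MC3 (by 0.51) and ATP5MC1 (by 0.50). The genes that rose were NDUFAF7 and NDUFAF5, both at 0.43, and NDUFS3 at 0.28. Group means fell at each step, 0 to 4 h and 4 to 8 h, for 39 of the 84 genes in S547A and 32 in wt cells. They rose at each step for 10 in S547A and 15 in wt cells. The same counts were not made over all genes, so these cannot be called particular to the set. UQCR10 averaged 9.71 ± 0.10 untreated, 9.38 ± 0.20 at 4 h and 8.54 ± 0.12 at 8 h in S547A cells (log2 level, SD, n = 3). The wt averages were 9.54 ± 0.17 untreated, 9.55 ± 0.07 at 4 h and 8.75 ± 0.19 at 8 h. The 4 h and 8 h comparisons of a line share their untreated arrays.

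No difference between the lines was called for any of the 84 genes. S547A and wt cells were compared untreated, at 4 h and at 8 h, where 0.0415% (0.0249% higher, 0.0166% lower), 0.083% (0.0747% higher, 0.0083% lower) and 0.108% (all higher) of all genes were called (limma), and 3, 2 and 4 of the 84 had an unadjusted p under 0.05. The lowest adjusted p among them was 0.798 untreated, 0.966 at 4 h and 0.694 at 8 h. The response of S547A cells did not differ from that of wt cells past the threshold for any gene of the set, at 4 h or at 8 h (0.0166% and 0.0249% of all genes called, 0.0083% in each direction at 4 h and all higher at 8 h, and 4 and 5 of the 84 at an unadjusted p under 0.05). The 95% interval of such a difference had a median half-width of 0.39 log2 units. That interval is not adjusted over all genes as the calls are, so differences of that size and larger ones could be missed. The widest gap at 8 h was that of UQCRBP1, whose response was 0.92 higher in S547A (95% interval 0.12 to 1.73, adjusted p = 0.645). The response of COX7B was 0.74 higher in S547A (0.10 to 1.38, adjusted p = 0.639), and that of UQCR11 was lower, at -0.59 (interval -1.14 to -0.03, adjusted p = 0.665).

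The lines, which do not share arrays, can be set side by side at 8 h. Of the genes that fell, 11 did so in both, which is 61.1% of the 18 in S547A and 57.9% of the 19 in wt cells, against 60.1% and 65.4% over all genes called lower. These were ATP5MC1, ATP5MF, COX5A, COX6B1, NDUFA3, NDUFB6, NDUFC1, NDUFS5, NDUFV2, SDHC and UQCR10. Without ATP5MK, 4 genes rose in both, all 4 of S547A and 80% of the 5 in wt cells, against 74.7% and 72.8% over all genes called higher. Across the 84 genes the changes in the 2 lines correlated at r = 0.708 (Spearman 0.682), against 0.822 across all genes tested. These are descriptions across genes, measured on the same 2 sets of arrays.

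**Figure D4:**
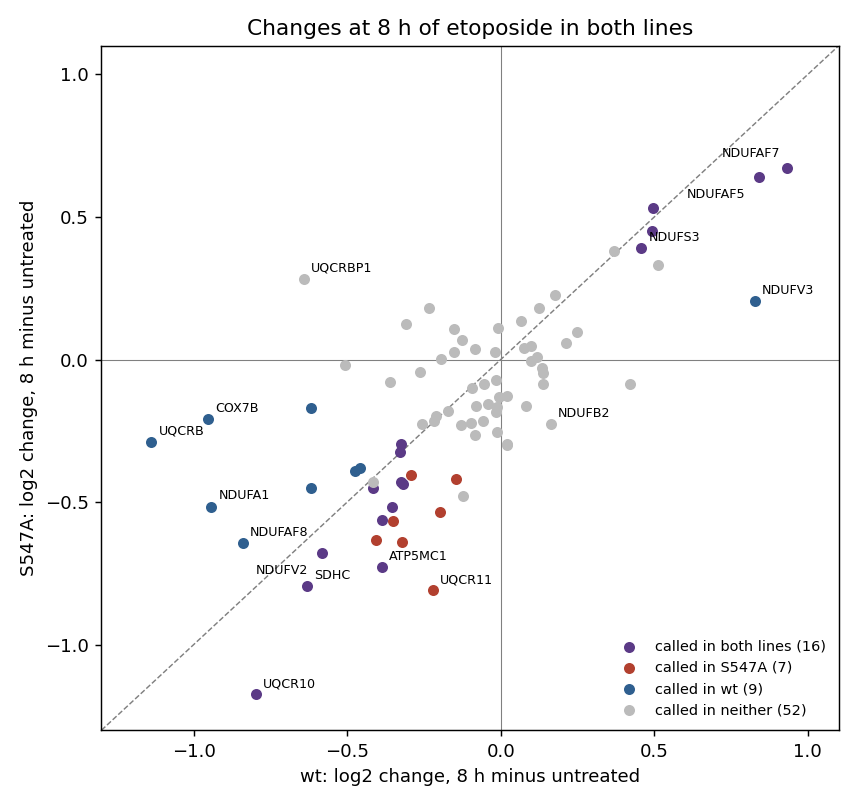
Log2 change at 8 h of etoposide against untreated cells for each of the 84 genes, in S547A (vertical axis) and wt cells (horizontal axis), with the line of equal change dashed and colours for the lines in which a gene was called. Of the points, 16 were called in both lines, 7 in S547A, 9 in wt cells and 52 in neither.

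Other mitochondrial gene lists, chosen by known function, are given with their called counts at 8 h, to be read against 16.1% higher and 14.3% lower of all genes in S547A and 16.5% and 13.2% in wt cells. No test of a list was made. Of each list, at most a few called genes in each direction and line are named. Where more were called than are named, a gene given for S547A or wt cells alone may be called in the other line too. Of 16 genes that regulate mitochondrial biogenesis and transcription, 8 rose (50%) and 1 fell (6.25%) in S547A and 8 rose (50%) and none fell in wt cells, with median log2 changes of 0.64 and 0.41. TWNK, the helicase of mitochondrial DNA, rose by 0.96 in S547A and 1.40 in wt cells, GABPB1, a subunit of the ETS factor GABP, by 0.95 in S547A, and TFB2M, a mitochondrial transcription factor, by 0.89 in wt cells. POLRMT, the mitochondrial RNA polymerase, fell by 0.56 in S547A cells. Of 41 further assembly factors, 10 rose (24.4%) and 8 fell (19.5%) in S547A and 11 rose (26.8%) and 6 fell (14.6%) in wt cells. Among them COX11, which delivers copper to complex IV, rose by 1.43 in S547A and 1.39 in wt cells, and COX20 by 0.85 and 1.04. COX14 fell by 1.08 in S547A, PET100 by 0.88 in S547A and 0.63 in wt cells, and NUBPL, which supplies iron-sulfur clusters to complex I, by 0.84 in wt cells.

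Of 19 glycolysis genes, 10 (52.6%) were called lower and none higher in S547A and 5 (26.3%) lower and none higher in wt cells, where 14.3% and 13.2% of all genes were lower. The median log2 change of the 19 was -0.41 in S547A and -0.28 in wt cells. The glucose transporter gene SLC2A3 fell by 1.22 in S547A and 0.83 in wt cells, PFKP, a phosphofructokinase, by 0.81 in S547A, and HK1, a hexokinase, by 0.60 in wt cells. Of 79 genes of the mitochondrial ribosome, 16 fell (20.3%) and 10 rose (12.7%) in S547A, against 14.3% and 16.1% of all genes. In wt cells 9 fell (11.4%) and 14 rose (17.7%), against 13.2% and 16.5%. The median log2 changes were -0.03 in S547A and 0.03 in wt cells. MRPS28 fell by 1.09 and 1.00, MRPL28 by 0.87 and 0.86, and MRPS31 rose by 0.95 and 0.94, in S547A and wt cells. Its pseudogene MRPS31P5, which may share signal with it, rose by 1.51 in S547A and 2.03 in wt cells.

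Among 21 genes of mitochondrial import, 4 rose (19%) and 1 fell (4.76%) in S547A and 6 rose (28.6%) and 1 fell (4.76%) in wt cells (medians 0.08 and 0.13). TIMM8A, a small chaperone of the intermembrane space, rose by 0.65 in S547A and 0.85 in wt cells. TIMM23, the channel of the inner membrane translocase, rose by 0.55 in S547A and TIMM9, another small chaperone, by 0.73 in wt cells, while TIMM13 fell by 0.60 in S547A and the chaperonin gene HSPE1 by 0.83 in wt cells. Of 15 citric acid cycle genes, 2 rose (13.3%) and 1 fell (6.67%) in S547A and 1 rose (6.67%) and 3 fell (20%) in wt cells (medians -0.09 and -0.13). DLST rose by 0.75 in S547A and 0.63 in wt cells, IDH3A by 0.59 in S547A, DLD fell by 0.42 and 0.41, and OGDH by 0.80 in wt cells. Of 15 genes of electron carriers and ubiquinone synthesis, 1 rose (6.67%) and 1 fell (6.67%) in S547A and 2 rose (13.3%) and 1 fell (6.67%) in wt cells (medians 0.13 and 0.17). Counts this small differ from the shares of all genes by a few genes. PDSS1, an enzyme of the ubiquinone tail, rose by 0.81 in S547A and 0.90 in wt cells, and COQ9 by 0.52 in wt cells, while PDSS2 fell by 0.35 in S547A and ETFA by 0.63 in wt cells. Of 9 antioxidant genes, 2 fell and none rose in S547A, with UCP2 at -0.91 and CAT at -0.45, and 1 rose in wt cells, TXNRD2 by 0.43 (medians -0.17 and -0.04).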

How the data were processed

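Total RNA of 18 samples was measured on Illumina bead arrays with biotin labelling and streptavidin-Cy3, per the labels' protocols. Each array has 47231 probes in the first deposited table, with a linear intensity, not normalized, and a detection p-value (per the file headers). A second deposited table holds linear intensities of 47226 probes that the authors had normalized between arrays and was used as an alternative. The submitters' processing notes name GenomeStudio without its version. A step of background subtraction is not given in the sources used here.

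The function neqc of limma 3.58.1 (R 4.3.3) was applied with an offset of 16, which corrects background by way of the detection p-values, normalizes quantiles and takes log2. A probe was kept if 3 or more arrays detected it at p under 0.05 (22161 probes, 16005 of them with 1 symbol), and the brightest stood for each of 12055 genes. The precision is limited by 3 arrays per group. All 18 arrays entered a limma fit of group means (12 residual degrees of freedom, two-sided), with Benjamini-Hochberg adjustment over all genes in each of 10 comparisons. On simulated data made from these arrays for wt at 8 h (12055 genes) 20% of the genes given a log2 change of 0.5 were called, 86% of those given 1 and 100% of those given 2, with 6 false calls. Only 50 genes were given each size of change there, whereas 29.7% of all genes were called in the data. The adjustment was therefore stricter in the simulation, and its shares need not hold for the data.

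Members follow the symbol rule. Named are called members (up to 15 per direction), the highest and lowest of each complex at 8 h and members whose probes disagree in sign. Isoform sets and up to 2 called genes per list, direction and line are named too. Members and lists were chosen with earlier results of these data known. Of 250 list symbols 246 were resolved. Promoters came from RefSeq (GRCh38.p14), the first listed window per gene. The 9 alternatives concern background, offset, scaling, the authors' table, filters, probes, arrays fitted and a replicate block, and each array was also left out in turn.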

Additional observations from a re-analysis of the deposited data

Results flagged for a closer look

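NDUFB2, an accessory subunit of complex I, moved in opposite directions in the 2 lines at 8 h without being called in either. It read 11.80, 11.86 and 12.05 in S547A cells at 8 h, against 12.12, 12.12 and 12.14 untreated, so that every 8 h array was lower (log2 change -0.23, adjusted p = 0.112). In wt cells it read 12.09, 12.14 and 12.19 at 8 h, against 11.96, 12.04 and 11.93 untreated, so that every 8 h array was higher (0.16, adjusted p = 0.265). The difference between the responses, S547A minus wt, was -0.388 ± 0.146 (SE, limma, unadjusted p = 0.0166, adjusted p = 0.635). It is the lowest p among the 84 genes for that difference, and it does not pass the adjustment over all genes.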

How the results depend on the processing

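Under other settings, 262 counts of called members stayed within 1.5 times the count reported and 8 did not. Many of the 262 come from comparisons without any call, where the count stayed at 0. They say little about the comparisons with calls. The 8 that moved include wt at 4 h, with 0 calls under common-median scaling, 0 with the mean of the kept probes and 2 with the replicate block, in place of 1. The change between 4 h and 8 h gave 15 calls under common-median scaling in place of 24. Leaving out 1 array gave 14 to 28 calls in wt at 8 h, 17 to 24 in S547A at 8 h, 20 to 24 between 4 h and 8 h, 1 in wt at 4 h and 0 elsewhere. Common-median scaling moved the median log2 change of the members to -0.169 in wt at 4 h, -0.230 in S547A at 8 h, -0.186 for S547A minus wt untreated, -0.226 for S547A minus wt at 8 h, and 0.191 for the difference in response at 4 h. The median of all genes moved with it, to -0.107, 0.112, -0.215, -0.158 and 0.223 in the same comparisons. The cause was not tested. It also reversed 2 uncalled changes at 8 h, UQCRQ in wt (-0.073) and COX4I1 in S547A cells (-0.107), and UQCRC2 in S547A cells ran from -0.011 to 0.0654 when 1 array was left out, negative without S547A 8 h replicate 1. Of the calls at 8 h, 9 of 23 in S547A and 7 of 25 in wt cells held in every alternative, arrays left out included. Those of S547A are ATP5MC1, ATP5MF, COX5B, NDUFA3, NDUFAB1, NDUFV2, SDHC, UQCR10 and UQCR11, and those of wt COX7B, NDUFAF5, NDUFAF7, NDUFV2, NDUFV3, SDHC and UQCR10. No label states that the replicate numbers pair arrays across groups, and the main fit leaves them out. Arrays with the same number were nevertheless more alike than others in their deviations from the group means. Deviations of same-numbered arrays correlated at -0.076 to 0.213 (median 0.073, 14 of 45 pairs over 0.1). Those of differently numbered arrays had a median of -0.037 (1 of 90 over 0.1), and 15 of 18 arrays correlated best with their own number. With the number as a replicate block, 30 members were called in wt and 27 in S547A at 8 h and 26 between 4 h and 8 h. A block of slides was not run, since the files used name no slide. Genes close to background, such as ATP5MK and NDUFB4, are limited by their signal.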

Other observations

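Several of the genes that vary most between arrays of the same group deviate on the same arrays. Of the 84 genes, 10 were detected on all arrays and had a within-group SD over 0.25 log2 units, among them UQCRB with 0.551, a spread larger than that of 99.8% of all genes tested. Deviations from the group means over the 18 arrays correlated with those of UQCRB at r = 0.934 for ATP5PF, 0.896 for NDUFA1, 0.884 for COX7A2, 0.871 for UQCRBP1, 0.807 for NDUFAF4 and 0.743 for COX7B. They ran the other way for NDUFAF8, NDUFA7 and NDUFV3 (r = -0.706, -0.699 and -0.48), and the median over the other 74 genes was -0.108. The array of replicate 1 was the lowest of its group in 6 of 6 groups for NDUFA1 and COX7A2 and in 5 of 6 for UQCRB, UQCRBP1 and ATP5PF. These genes were picked after their values were seen, the points share arrays and group means, and the cause was not tested.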
